A study of Homo sapiens with 4 samples.

Results

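The genes described here are 40 genes of fatty acid oxidation and ketone metabolism, taken from a fixed list of symbols among the 61541 genes of a count table from MHCC97H cells. They comprise 21 genes of mitochondrial β-oxidation, 5 of peroxisomal β-oxidation, 3 of ketone metabolism, 4 acyl-CoA synthetases, the 3 PPAR nuclear receptors with their coactivator PPARGC1A, and 3 genes of fatty acid binding, lipid droplets and lipoprotein lipase inhibition. MHCC97H is an established line of human hepatocellular carcinoma (HCC) cells, and the study compared UBXN1-knockdown cells with control cells to learn how the knockdown changes gene expression. RNA-seq was performed on 2 libraries of control cells (shCon) and 2 libraries of UBXN1-knockdown cells (shUBXN1), all of this 1 cell line, and no further treatment is named in the labels. By the study's methods, short hairpin RNAs were delivered in the lentiviral vector pLKO.1, whereas the series' own description speaks of a transfection. Which UBXN1 hairpin the sequenced cells carried is not given in the sources used here, and nothing says that the libraries came from separate cultures, so the p-values measure the spread between these libraries, which may be technical.

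Fatty acids are activated to acyl-CoA by acyl-CoA synthetases, carried into mitochondria by the carnitine shuttle and shortened there in repeated rounds of dehydrogenation, hydration, a second dehydrogenation and thiolysis. Very long and branched chains are shortened first in peroxisomes, where the first step is made by an oxidase and not by a dehydrogenase. In liver the resulting acetyl-CoA can be turned into ketone bodies, and PPARα is the receptor that hepatocytes are known for using to switch these genes on, whereas PPARγ is best known from fat cells.

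The PPARs bind DNA together with a retinoid X receptor at a direct repeat of a hexamer spaced by 1 base. The motif AGGTCANAGGTCA was searched on both strands of the RefSeq promoter windows (GRCh38.p14, from 250 bases before to 50 bases after each start), with up to 2 mismatches among its 12 fixed letters. Windows were found for 34 of the 40 genes. ACAD11, DECR1, ETFDH, ACAA1, ACOX2 and EHHADH had no entry. A match was found in 3 of the 34 genes (8.82%), and in 991 of the 27305 genes with a window (3.63%). A gene can have several windows. Counted by window, the rate was 5.56% of the 54 windows of the members and 2.97% of all 35116 windows. The 3 matches are shown because they belong to genes that behaved in different ways below. Each is printed in the direction of its gene with the 13 bases of the match in capitals, and the match of FABP1 and of ACSL1 lies on the strand opposite to the gene.
FABP1 (chr2:88128110-88128138, match from base -68): acagctgcTGACCTCTGGCCGctattcga
ACAA2 (chr18:49813589-49813617, match from base -76): caggaagtAGGTGAAAGGGCAggggcgtg
ACSL1 (chr4:184805647-184805675, match from base -114): tcggcatgTGACTTGTGCCCTgagagacc
The 3 genes lie on the minus strand, and the ACSL1 match belongs to 1 of its 5 annotated windows. In the shUBXN1 libraries ACSL1 fell, ACAA2 rose and FABP1 was at 0 counts in all 4 libraries, as described below. Of the other genes with a window, 11 were 3 mismatches away from the motif, 13 were 4 away and 7 were 5 away.

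The windows of the other members that changed by 2-fold held no match. Their closest stretches are printed in the same way, and show how far from the motif they lie.
ACSL5 (chr10:112376023-112376051, plus strand, 3 mismatches): tagttgaaAGATGATAGGCCAcaggaggg
ACOX3 (chr4:8440902-8440930, minus strand, 4 mismatches): tttgtttgCCACCTGCGGCCTctccagcc
ANGPTL4 (chr19:8364045-8364073, plus strand, 4 mismatches): cccaccccCGGCCACAGGCCCtgccccca
The capitals of ACOX3 are the closest stretch on the strand opposite to the gene. These are letters in a 300-base window and say nothing of binding, and sites farther away were not searched.

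The labels were checked on the targeted gene. UBXN1 was at 67.1 and 77.3 CPM (a gene's count relative to the library's total, scaled by the TMM method of edgeR) in shCon and at 16.8 and 18.5 CPM in shUBXN1. The groups did not overlap, and 24.5% of the control level was left (log2 fold change -2.03, SE 0.096, with an adjusted p of 9.98e-10 in the quasi-likelihood test of edgeR; SE is the standard error). The 4 libraries held from 23373700 to 27380508 counts, and counts on the mitochondrial genome made up 5.28% and 5.59% in shCon and 7.43% and 8.27% in shUBXN1. The part of this difference in the results below was not tested. Among the markers of the labelled cell type, the keratin gene KRT8 was at 4053 TPM in shCon and 3116 TPM in shUBXN1 (TPM is counts per gene length, scaled to the same sum in each library). KRT18 was at 1302 TPM in shCon and 1681 TPM in shUBXN1. The markers of secretory hepatocytes were far lower, with AFP at 5.97 TPM in shCon and 5.11 TPM in shUBXN1. The summed level of the 6 hepatocyte and epithelial markers was 5405 to 5452 TPM in shCon and 4624 to 5042 TPM in shUBXN1. Nearly all of this sum was KRT8 and KRT18, so it says little of the other markers. At an adjusted p under 0.05, 4 of the 6 fell, KRT18 rose and AFP did not pass the test. Of all genes tested, 28.2% were lower and 28.0% were higher by this rule. FGB, a chain of fibrinogen, had a log2 fold change of -4.02 (adjusted p = 3.8e-08, edgeR), TF (transferrin) of -1.96 and APOH of -0.99. Of the other cell types, the leukocyte marker PTPRC had 0 to 4 counts in each library, VWF was at or below 0.34 TPM, and the 2 fibroblast markers summed to 0.62 and 0.80 TPM in shCon and to 0.90 and 0.95 TPM in shUBXN1 (DCN with 1 to 17 counts in each library, COL1A1 with 4 to 59). CD68 (83.2 to 102.3 TPM) and PECAM1 (9.61 to 13.7 TPM) were detected in all libraries. The part of the lower hepatocyte markers in the results below was not tested.

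Enough counts for the test over 16863 genes were found for 36 of the 40. With Benjamini-Hochberg adjustment over all genes and a threshold of 0.05, 9 of the 36 were higher and 14 were lower in shUBXN1. Of all genes tested, 28.0% were higher and 28.2% were lower by the same rule. At the study's thresholds, a fold change of 2 with an unadjusted p under 0.05, 2 members were higher (ACOX3 and ANGPTL4) and 2 were lower (ACSL1 and ACSL5), against 11.8% of all genes higher and 6.09% lower. On the log2 scale the 36 members had a median fold change of -0.08, where the median over all genes tested was 0.02. Some members with small fold changes, named below, lost their call with a shCon library left out. In these bulk libraries, fewer cells that express a gene and less of its RNA per cell cannot be told apart.

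**Figure D1:**
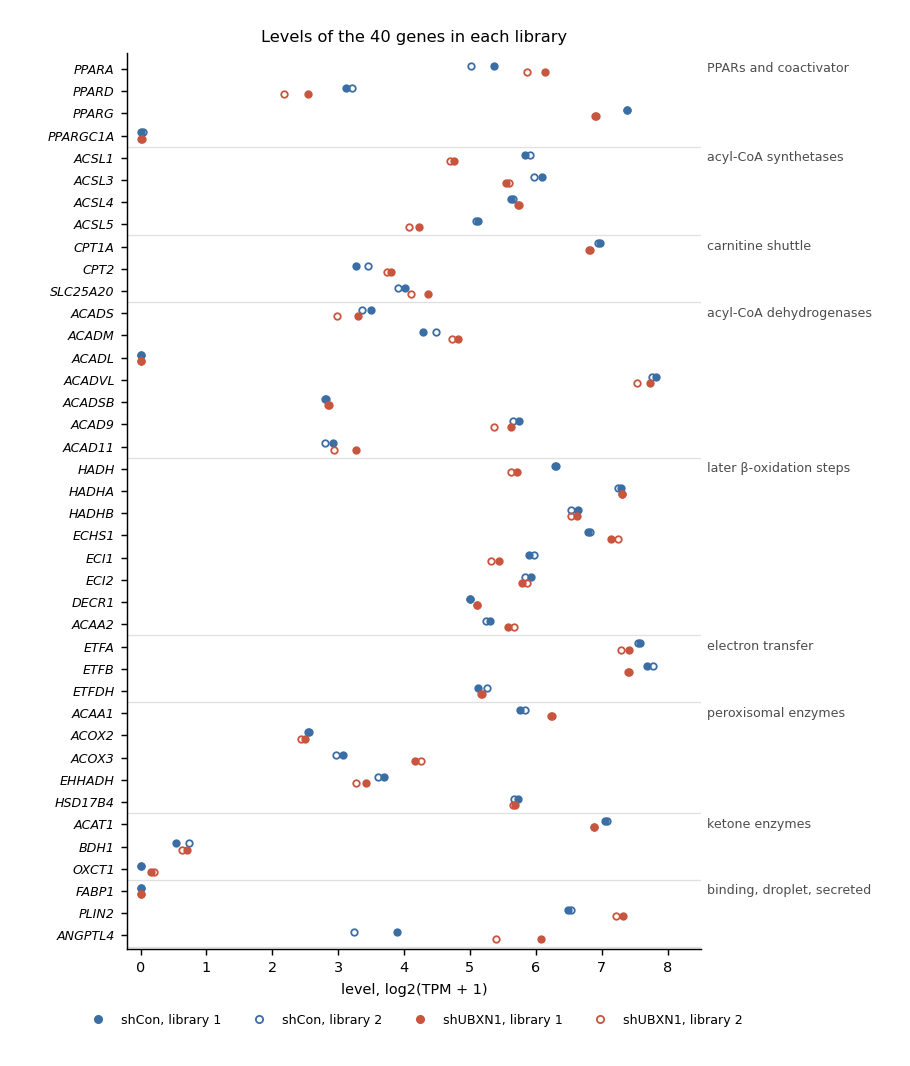
Level of each of the 40 genes in each library as log2(TPM + 1), with TPM computed from the deposited counts and gene lengths. Blue points are shCon, red points are shUBXN1, filled circles are library 1 and open circles library 2; PPARGC1A, ACADL, BDH1, OXCT1 and FABP1 lie near 0, and the groups lie far apart for ANGPTL4, ACOX3, ACSL1 and ACSL5.

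**Figure D2:**
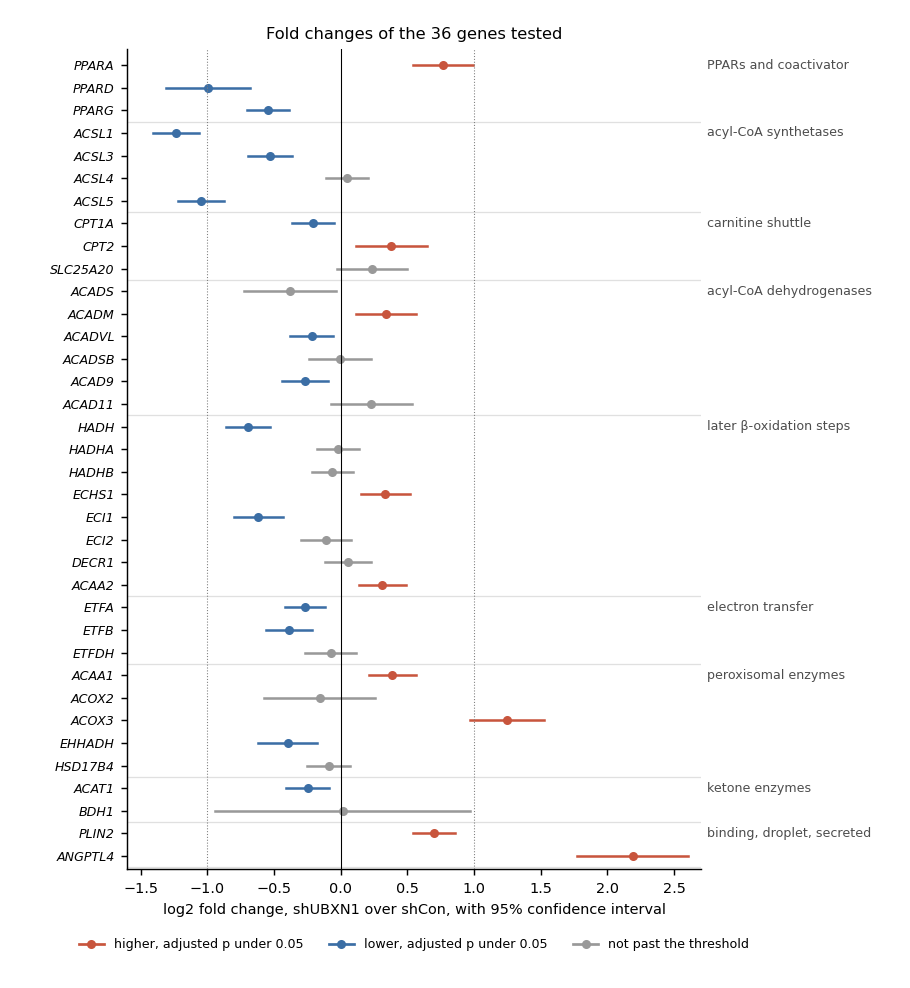
Log2 fold change of the 36 genes tested, shUBXN1 over shCon, with 95% confidence intervals from edgeR and dotted lines at a fold change of 2. Red marks the 9 higher genes, blue the 14 lower genes and grey the 13 that did not pass an adjusted p of 0.05; intervals of ACSL1 and ACOX3 lie away from 0 on opposite sides.

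Levels were compared between genes per length. In shCon ACADVL stood first at 220.4 ± 6.15 TPM (SD, n = 2), followed by ETFB at 211.2 ± 9.33, ETFA at 187.7 ± 3.15, PPARG at 166.0 ± 0.44 and HADHA at 153.4 ± 3.78 TPM. The first 2 of these did not differ beyond their spread. In shUBXN1 ACADVL was again first (197.7 ± 19.7 TPM), followed by ETFB (167.7 ± 1.14 TPM), and PLIN2 had moved to the fifth place at 153.3 ± 8.67 TPM from 90.4 ± 2.20 TPM in shCon. The order at the top depends on the length used for ETFB, which is 3551 bases in the deposited table and 872 in the canonical transcript. With canonical lengths ETFB stood first in both groups, at 429.1 CPM per kilobase in shCon and 327.3 in shUBXN1, ahead of ACADVL at 112.1 and 96.3.

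Among the nuclear receptors, PPARA rose and both PPARD and PPARG fell. PPARA, the fasting-responsive receptor of liver, was at 30.7 and 24.7 CPM in shCon and at 49.9 and 44.4 CPM in shUBXN1. Both shUBXN1 libraries lay above both shCon libraries, with a log2 fold change of 0.76 (SE 0.105, adjusted p = 2.54e-05, edgeR). PPARD, a receptor found in most tissues, was at 14.2 and 15.8 CPM in shCon and at 8.40 and 6.62 CPM in shUBXN1. Its log2 fold change of -0.996 (SE 0.148, adjusted p = 5.21e-05, edgeR) stood just short of a 2-fold fall. PPARD went past a 2-fold fall in some other fits. Among them were those without the first shCon library (-1.07), without the first shUBXN1 library (-1.18) and with the trend on GC content removed (-1.12). PPARG was at 150.6 and 155.8 CPM in shCon and at 102.0 and 108.2 CPM in shUBXN1. The groups were separate again, and the log2 fold change was -0.54 (SE 0.073, adjusted p = 2.13e-05, edgeR). PPARGC1A, the coactivator known for raising mitochondrial gene expression, had 0 and 2 counts in shCon and 0 and 1 in shUBXN1, too few to be tested in the main fit.

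PPARG was the most abundant receptor in these cells per length. It was at 166.0 TPM in shCon and 118.7 TPM in shUBXN1, against 35.7 and 63.4 TPM for PPARA and 7.98 and 4.18 TPM for PPARD. As a share of the 3 receptors' TPM, PPARA stood at 18.8% and 15.2% in shCon and at 35.8% and 32.1% in shUBXN1. PPARG stood at 77.6% and 80.8% in shCon and at 61.7% and 65.9% in shUBXN1. PPARD held 3.6% and 4.01% in shCon and 2.49% and 1.98% in shUBXN1. The shares of the groups did not overlap for the receptors, but shares within a library depend on each other and are not separate results. They are a description, since 2 libraries against 2 cannot give an exact permutation p below 0.333. The size of the shift rests on the length used for PPARA, which is 1558 bases in the deposited table and 10118 bases in the canonical transcript of the GENCODE annotation. With canonical lengths PPARA held 3.30% and 2.59% in shCon and 7.62% and 6.53% in shUBXN1, and PPARG held 92.5% and 92.9% in shCon and 88.9% and 90.8% in shUBXN1. PPARG led in all 4 libraries on both scales. PPARD held 4.16% and 4.48% in shCon and 3.48% and 2.64% in shUBXN1 with canonical lengths, and so stood above PPARA in shCon and below it in shUBXN1.

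The acyl-CoA synthetases, which trap fatty acids in the cell as acyl-CoA, had the lowest median of the main groups. Of the 4, 3 fell and none rose, beside 28.2% lower and 28.0% higher among all genes, and their median log2 fold change was -0.79. ACSL1 (chromosome 4, 184755595 to 184826818, minus strand, GRCh38), the main synthetase of liver and fat, was at 68.2 and 73.6 CPM in shCon and at 29.6 and 30.5 CPM in shUBXN1. Both knockdown libraries were lower by more than the spread within either group, and 42.4% of the control level was left (log2 fold change -1.24, SE 0.081, adjusted p = 1.84e-08, edgeR). ACSL5 (chromosome 10, 112374116 to 112428379, plus strand), found on mitochondria and the endoplasmic reticulum, was at 55.3 and 56.1 CPM in shCon and at 27.4 and 26.4 CPM in shUBXN1. Its control level was cut to 48.3% (log2 fold change -1.05, SE 0.081, adjusted p = 9.44e-08, edgeR), a value close to the 2-fold threshold that it missed with scaling to the total count (-0.96) and with limma on log2(TPM + 1) (-0.95). ACSL3, a synthetase of lipid droplets, fell from 179.9 and 169.1 CPM to 115.1 and 126.9 CPM (log2 fold change -0.53, adjusted p = 4.7e-05, edgeR). ACSL4, which prefers arachidonic acid, was at 117.7 and 123.8 CPM in shCon and at 120.6 and 128.9 CPM in shUBXN1, and the groups overlapped. Its log2 fold change was 0.05 with a 95% interval from -0.11 to 0.21 (adjusted p = 0.617, edgeR).

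The summed level of the 4 synthetases was 205.5 and 202.7 TPM in shCon and 142.2 and 140.0 TPM in shUBXN1. Within this sum ACSL1 held 27.4% and 29.0% in shCon and 18.3% and 17.8% in shUBXN1. ACSL5 held 16.4% in each shCon library and 12.5% and 11.4% in shUBXN1. ACSL4 went the other way as a share, from 23.4% and 24.3% in shCon to 37.0% and 37.3% in shUBXN1. It was the highest of the 4 in shUBXN1 on every scale tried, while its place in shCon was the third with the deposited lengths and the second, above ACSL1, with canonical lengths (26.8% against 20.7%) and with CPM (28.6% against 16.8%). ACSL3 held 32.8% and 30.3% in shCon and 32.3% and 33.6% in shUBXN1, with groups that overlapped. These shares are a description, since 2 libraries against 2 cannot give an exact permutation p below 0.333, and the change of ACSL3 turned from 1.37 to -1.41 percentage points when CPM replaced TPM.

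**Figure D3:**
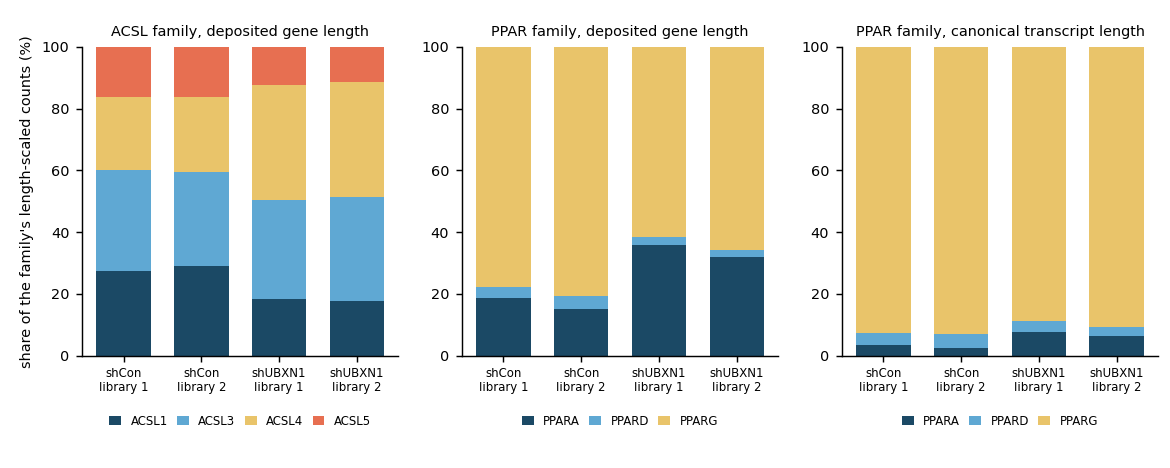
Share of each acyl-CoA synthetase (left) and each PPAR (middle and right) in the family's counts per length, in percent, for each library. Bars are stacked to 100%; ACSL4 takes 23.4% and 24.3% of its family in shCon and 37.0% and 37.3% in shUBXN1, and PPARA grows in both PPAR panels but from a lower share with canonical transcript lengths.

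The carnitine shuttle moved in both directions by small amounts. CPT1A, the outer membrane carnitine palmitoyltransferase that is the controlled entry step of the pathway, was at 146.1 and 147.1 CPM in shCon and at 122.7 and 131.2 CPM in shUBXN1. It was lower in both knockdown libraries, with a log2 fold change of -0.21 (SE 0.073, adjusted p = 0.0255, edgeR). CPT2, its inner membrane partner, was at 11.6 and 13.8 CPM in shCon and at 16.2 and 16.7 CPM in shUBXN1. This was a rise of 0.38 on the log2 scale (SE 0.124, adjusted p = 0.0181, edgeR), and 12.4% of its exon bases are overlapped by an antisense gene. SLC25A20, the carrier that exchanges acylcarnitine for carnitine, was at 13.2 and 12.6 CPM in shCon and at 16.04 and 14.31 CPM in shUBXN1 and did not pass the test (log2 fold change 0.23, adjusted p = 0.117, edgeR). The call of CPT1A was lost without either shCon library (adjusted p = 0.122 and 0.22, edgeR) and with scaling to the total count (-0.12, adjusted p = 0.0723), and that of CPT2 without the first shCon library (log2 fold change 0.26, adjusted p = 0.213, edgeR) and in DESeq2 (0.0773).

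The acyl-CoA dehydrogenases make the first step of each round and differ in the chain length they take. Of the 6 tested, ACADM rose, ACADVL and ACAD9 fell and 3 did not pass the test. Among all genes tested 28.0% were higher and 28.2% were lower. ACADM, the medium-chain enzyme, was at 19.8 and 23.5 CPM in shCon and at 27.3 and 27.4 CPM in shUBXN1. It had the highest fold change of the group (log2 0.34, SE 0.105, adjusted p = 0.0125, edgeR). ACADVL, the very long-chain enzyme, fell from 245.9 and 243.6 CPM to 217.4 and 203.3 CPM (log2 fold change -0.22, adjusted p = 0.0209, edgeR). ACAD9, an assembly factor of respiratory complex I that resembles ACADVL, fell from 70.5 and 67.5 CPM to 60.2 and 54.3 CPM (log2 fold change -0.27, adjusted p = 0.00999, edgeR). ACADS, the short-chain enzyme, had the lowest fold change of the group. It was at 9.34 and 8.77 CPM in shCon and at 7.56 and 6.36 CPM in shUBXN1, and its log2 fold change of -0.38 missed the threshold (SE 0.161, adjusted p = 0.0584, edgeR), which it passed with the trend on GC content removed (-0.62, adjusted p = 0.00419). ACADSB, for short branched chains, was at 16.9 to 17.9 CPM in all 4 libraries (log2 fold change -0.01, 95% interval -0.24 to 0.23). ACAD11 had a log2 fold change of 0.23 (adjusted p = 0.186, edgeR). ACADL, the long-chain enzyme, was at 0 counts in all 4 libraries. Without the first shCon library the log2 fold change of ACADM was smaller (0.22) and its call was lost (adjusted p = 0.2, edgeR). The calls of ACADVL (-0.21, adjusted p = 0.138, edgeR) and ACAD9 (-0.24, adjusted p = 0.0842) were lost there too at nearly the same fold change, as was that of ACADVL without the second shCon library (-0.24, adjusted p = 0.198). With the trend on GC content removed ACADVL was at -0.34. ACADVL and ACAD9 also missed the threshold with scaling to the total count (-0.13 and -0.18, adjusted p = 0.117 and 0.0963, edgeR) and with limma on log2(TPM + 1) (0.111 and 0.114), while ACADS passed the test without the first shUBXN1 library (log2 fold change -0.51, adjusted p = 0.017) and ACAD11 without the second (0.34, adjusted p = 0.0491).

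The later steps of the spiral held the largest mitochondrial falls. HADH, which oxidises short and medium-chain 3-hydroxyacyl-CoA, was at 65.0 and 67.8 CPM in shCon and at 40.6 and 41.3 CPM in shUBXN1. The groups were far apart relative to their spread, and the log2 fold change of -0.70 (SE 0.076, adjusted p = 2.93e-06, edgeR) was the lowest of the 20 mitochondrial genes tested. ECI1, an isomerase for the double bonds of unsaturated fatty acids, was at 43.4 and 47.0 CPM in shCon and at 29.6 and 29.2 CPM in shUBXN1. It fell by a similar amount (log2 fold change -0.62, SE 0.085, adjusted p = 2.54e-05, edgeR). ECHS1, the short-chain hydratase, was at 68.6 and 72.5 CPM in shCon and at 82.2 and 95.7 CPM in shUBXN1. Its rise of 0.34 on the log2 scale (SE 0.084, adjusted p = 0.00374, edgeR) was the highest of the later steps, and its value without the second shUBXN1 library was 0.21. ACAA2, the mitochondrial thiolase whose promoter stretch is printed above, rose from 55.0 and 54.6 CPM to 63.4 and 72.7 CPM (log2 fold change 0.31, adjusted p = 0.00524, edgeR), a call lost without the second shCon library (0.29, adjusted p = 0.0783), and its value was 0.20 without the second shUBXN1 library. DECR1, the reductase for polyunsaturated chains, did not pass the test (0.06, adjusted p = 0.577), nor did the isomerase ECI2 (-0.11, adjusted p = 0.306), which passed without the second shUBXN1 library (-0.22, adjusted p = 0.0458, edgeR) and has 29.8% of its exon bases overlapped by an antisense gene, TEX56P.

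HADHA and HADHB encode the 2 subunits of the mitochondrial trifunctional protein, which takes long chains through the last 3 steps of a round. HADHA was at 228.7 and 227.6 CPM in shCon and at 217.0 and 233.0 CPM in shUBXN1, and HADHB was at 96.8 and 92.5 CPM in shCon and at 90.1 and 91.2 CPM in shUBXN1. The groups overlapped for HADHA, the shUBXN1 values of HADHB lay just below those of shCon, and neither gene passed the test, with 95% intervals of the log2 fold change from -0.18 to 0.14 for HADHA and from -0.22 to 0.09 for HADHB. The genes start 307 bases apart on opposite strands of chromosome 2 and point away from each other. These are the RefSeq starts, and the GENCODE annotation also has longer forms of HADHB that begin farther upstream. A part of the stretch between the RefSeq starts lies in the 250 bases before the HADHB start and outside all annotated exons of both genes. It is shown because they share it (GRCh38.p14, chr2:26244689-26244747, plus strand, in the direction of HADHB, with CG pairs in capitals).
HADHA and HADHB: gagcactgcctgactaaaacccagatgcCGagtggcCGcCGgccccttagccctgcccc
It holds 3 CG pairs in 59 bases and has a GC content of 67.8%.

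The electron transfer flavoprotein collects the electrons of the dehydrogenases and passes them to the respiratory chain. Both of its subunits fell, and ETFDH, the dehydrogenase that receives the electrons, did not pass the test. ETFB was at 357.0 and 391.5 CPM in shCon and at 273.4 and 297.4 CPM in shUBXN1. The highest knockdown value was below the lowest control value, with a log2 fold change of -0.39 (SE 0.080, adjusted p = 0.000853, edgeR). ETFA fell from 144.3 and 145.2 CPM to 120.5 and 119.9 CPM (log2 fold change -0.27, adjusted p = 0.00502, edgeR). ETFDH was at 37.1 and 41.8 CPM in shCon and at 36.1 and 38.7 CPM in shUBXN1, so that its groups overlapped (log2 fold change -0.08, adjusted p = 0.5, edgeR). Without the second shCon library both subunits missed the threshold (ETFB -0.34, adjusted p = 0.0713, and ETFA -0.28, adjusted p = 0.103, edgeR).

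Of the 5 peroxisomal enzymes, ACOX3 and ACAA1 rose, EHHADH fell and 2 did not pass the test. Among all genes tested 28.0% were higher and 28.2% were lower. ACOX3 (chromosome 4, 8366282 to 8440723, minus strand), an acyl-CoA oxidase of branched chains, was at 8.21 and 7.79 CPM in shCon and at 17.7 and 20.3 CPM in shUBXN1. Its lowest knockdown value was above both control values, and it rose 2.37-fold (log2 fold change 1.24, SE 0.130, adjusted p = 1.72e-06, edgeR), the highest value of the enzymes in the list. ACAA1, the peroxisomal thiolase, rose from 44.2 and 48.4 CPM to 58.5 and 62.6 CPM (log2 fold change 0.39, SE 0.081, adjusted p = 0.000963, edgeR), with 19.7% of its exon bases overlapped by the antisense gene DLEC1. EHHADH, the hydratase and dehydrogenase of the classical peroxisomal route, was at 22.4 and 21.4 CPM in shCon and at 17.01 and 16.23 CPM in shUBXN1. It fell by 0.40 on the log2 scale (SE 0.104, adjusted p = 0.00474, edgeR), which missed the threshold with limma on log2(TPM + 1) (-0.31, adjusted p = 0.0649). HSD17B4, which makes the same steps for branched chains and bile acid precursors, was at 66.6 to 73.8 CPM in all 4 libraries (log2 fold change -0.09, adjusted p = 0.324, edgeR). ACOX2, the oxidase of bile acid precursors, was at 4.89 to 5.58 CPM (log2 fold change -0.16, 95% interval -0.57 to 0.26).

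The 3 ketone genes were detected very unequally. ACAT1, the mitochondrial thiolase that joins 2 acetyl-CoA, was at 93.4 and 98.03 CPM in shCon and at 77.8 and 83.3 CPM in shUBXN1. The groups did not overlap, and the log2 fold change was -0.25 (SE 0.075, adjusted p = 0.0114, edgeR), a call lost without the second shCon library (-0.23, adjusted p = 0.175), and the value was -0.16 with scaling to the total count. BDH1, which interconverts acetoacetate and β-hydroxybutyrate, was at 0.75 and 1.11 CPM in shCon and at 0.97 and 0.90 CPM in shUBXN1. At this depth a change was not detectable, with a 95% interval of the log2 fold change from -0.94 to 0.97. OXCT1, the enzyme that lets tissues other than liver burn ketone bodies, was at 0 counts in both shCon libraries and at 4.41 and 6 counts in the shUBXN1 libraries, below the filter. Set against a floor of 3 counts in each shCon library, its mean in shUBXN1 was 1.74-fold higher. This ratio leaves out the counting error of the few shUBXN1 counts, so it is no lower bound, and the gene was not tested in the main fit.

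Among the remaining genes, PLIN2 and ANGPTL4 rose. PLIN2, the coat protein of lipid droplets, was at 82.8 and 88.3 CPM in shCon and at 139.5 and 138.7 CPM in shUBXN1. The rise of 0.70 on the log2 scale (SE 0.073, adjusted p = 1.76e-06, edgeR) was large against the spread in either group. ANGPTL4 (chromosome 19, 8363289 to 8374370, plus strand), a secreted inhibitor of lipoprotein lipase, was at 12.3 and 7.66 CPM in shCon and at 55.0 and 36.6 CPM in shUBXN1. Libraries of the same group differed more for this gene than for any other called at 2-fold, yet the groups were separate, and the rise was 4.56-fold (log2 fold change 2.19, SE 0.194, adjusted p = 3.58e-07, edgeR). With each library left out in turn it lay between 1.86 and 2.58 on the log2 scale. FABP1, the fatty acid binding protein of liver, was at 0 counts in all 4 libraries.

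The compartments were then set side by side. Each gene was assigned to a single compartment, and the place of its protein in the cell was not measured. Of the 20 mitochondrial genes tested, 4 rose, 7 fell and 9 did not pass the adjusted threshold, and none of the 20 was called at 2-fold. Of the 5 peroxisomal genes 2 rose and 1 fell, and of the 2 ketone genes tested 1 fell. Over all genes tested 28.0% rose and 28.2% fell by the same rule, and 11.8% and 6.09% were called at 2-fold, so that the mitochondrial counts at the adjusted threshold lay near those shares. The median log2 fold changes were -0.07 for the mitochondrial, -0.09 for the peroxisomal and -0.12 for the ketone genes, and all 3 lie well inside the interquartile range of all genes, which spans -0.39 to 0.51. The mitochondrial median was between -0.11 and -0.03 with a shUBXN1 library left out and 0.02 with scaling to the total count. With that scaling the median over all genes tested was 0.10. The ketone median, over 2 genes, was -0.26 and 0.04 without the first and the second shCon library. The summed level of the mitochondrial genes was 1525 and 1512 TPM in shCon and 1450 and 1396 TPM in shUBXN1. The peroxisomal genes summed to 129.3 and 128.7 TPM in shCon and to 156.0 and 154.8 TPM in shUBXN1. The higher peroxisomal sum came from ACAA1 (54.6 TPM in shCon and 74.4 in shUBXN1) and ACOX3 (7.12 and 17.6 TPM), while the means of the other 3 were slightly lower. Of the mitochondrial genes ETFB, whose length is uncertain, had 211.2 TPM in shCon and 167.7 TPM in shUBXN1. The ketone sum, almost all of it ACAT1, was 132.2 and 134.9 TPM in shCon and 117.7 and 117.0 TPM in shUBXN1. These sums are given without a test.

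**Figure D4:**
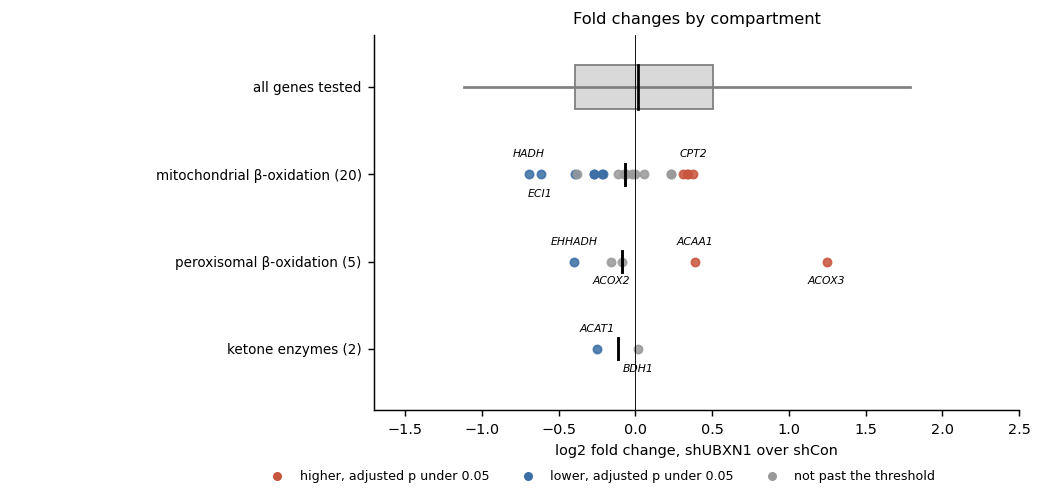
Log2 fold changes, shUBXN1 over shCon, of the mitochondrial, peroxisomal and ketone genes that were tested (1 point per gene, black bars at the medians), below all 16863 genes tested (box from the 25th to the 75th percentile, line from the 5th to the 95th). The medians of -0.07, -0.09 and -0.12 lie inside the box, and ACOX3 stands apart at 1.24.

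A list of 87 other genes of the pathway was measured in the same fit. Of the 81 tested, 25 rose and 25 fell, with a median of 0.00 on the log2 scale, beside the 28.0% and 28.2% of all genes. This balance moved with the scaling, to 28 higher and 18 lower with the total count and to 26 and 17 with limma on log2(TPM + 1). The calls over all 16863 genes moved too. They were 4727 higher and 4751 lower in the main fit, 5324 and 3969 with the total count, and 4742 and 3998 with limma. Among 19 peroxins and peroxisomal half-transporters, 4 rose and 9 fell (median -0.30). PEX10, a ubiquitin ligase subunit of peroxisomal import, fell from 25.3 and 25.6 CPM to 11.4 and 11.8 CPM (log2 fold change -1.14, adjusted p = 6.56e-07, edgeR), and 39.1% of its exon bases are overlapped by the antisense gene RER1. ABCD4, of the same family of half-transporters as those of the peroxisomal membrane, rose by 0.89 on the log2 scale. Of 12 other peroxisomal lipid enzymes, 4 rose and 5 fell, with DECR2 (0.84) and CROT (0.70) among the former and ECH1 (-0.58) and SCP2 (-0.33) among the latter.

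The genes of fatty acid uptake, carnitine handling and thioesterases held 9 higher and 4 lower genes of 22 tested (median 0.19). For this list and the next, the shares over all genes tested were 28.0% higher and 28.2% lower. SLC27A3, a fatty acid transport protein with synthetase activity, rose from 8.29 and 5.45 CPM to 23.8 and 23.9 CPM (log2 fold change 1.79, adjusted p = 3.17e-07, edgeR). FABP3, the binding protein of heart and muscle, rose from 2.51 and 4.09 CPM to 10.2 and 11.5 CPM (1.73, adjusted p = 8.9e-06, edgeR), while ACOT13 (-0.63) and FABP5 (-0.49) fell. Of 11 genes of lipid droplets and lipolysis, 5 rose and 2 fell (median 0.38). MGLL, which releases the last fatty acid of a glyceride, was at 120.1 and 118.3 CPM in shCon and at 201.4 and 218.9 CPM in shUBXN1 (0.82, adjusted p = 5.08e-07, edgeR). ABHD5, the activator of adipose triglyceride lipase, rose by 0.62, and the droplet proteins CIDEC (-0.72) and HILPDA (-0.61) fell.

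Partners of the PPARs moved in both directions. Of 12 partners and co-regulators, 2 rose and 4 fell (median -0.09), beside 28.0% higher and 28.2% lower among all genes tested. RXRA, the partner of the PPARs on DNA, rose by 0.21 on the log2 scale (adjusted p = 0.0205, edgeR), as did the coactivator LPIN1 by 0.27. The corepressor NRIP1 was at 86.7 and 83.8 CPM in shCon and at 67.6 and 66.5 CPM in shUBXN1 (log2 fold change -0.35, adjusted p = 0.00101, edgeR). Of 5 other genes of ketone metabolism, BDH2 rose by 0.49, AACS, which returns acetoacetate to lipid synthesis, fell by 0.38, and 3 did not pass the test.

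**Figure D5:**
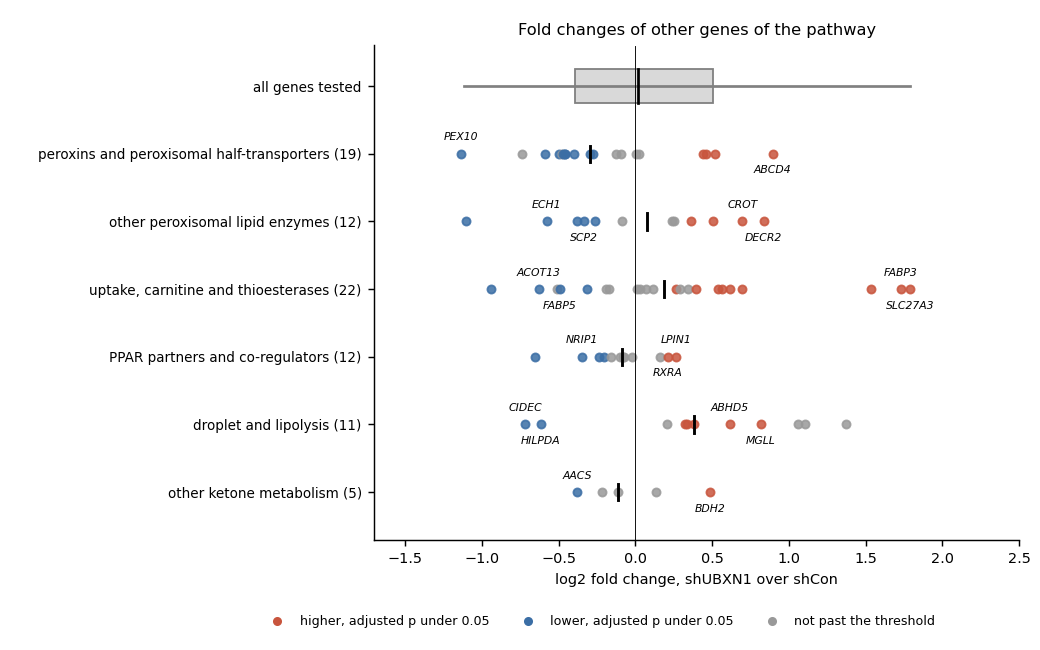
Log2 fold changes, shUBXN1 over shCon, of 81 other genes of the pathway in 6 lists (1 point per gene, black bars at the medians, red higher and blue lower at an adjusted p under 0.05), below all genes tested as a box with a line from the 5th to the 95th percentile. PEX10 lies at -1.14 and SLC27A3 at 1.79; each list holds genes on both sides of 0.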

How the data were processed

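RNA was sequenced in 2 shCon and 2 shUBXN1 libraries of MHCC97H cells, and groups were taken from the sample titles. The authors deposited expected counts that they had made from aligned paired-end reads, without normalization, and a length for each gene. The submitters' processing notes name HISAT2 2.0.4, StringTie 1.3.0 and GRCh37, whereas the study's methods name GRCh38, and 99.72% of the deposited gene IDs are in the GRCh38 annotation used here (GENCODE 44). The labels name a VAHTS mRNA library kit and shCon, the methods another kit and shRFP. The counting tool, the annotation release and the use of strand are not given in the sources used here, so genes with overlapping exons are uncertain. Of the 61541 IDs, 61369 were paired with a symbol.

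Counts were rounded, filtered with filterByExpr, scaled by TMM and tested across all genes with glmQLFit and glmQLFTest in edgeR 4.0.16 (R 4.3.3), with no block and Benjamini-Hochberg adjustment over 16863 genes. Standard errors are the log2 fold change over the root of the F statistic. With 2 libraries per group there were 2 residual degrees of freedom per gene, and the biological coefficient of variation was 0.0711. TPM was computed from the counts and the deposited lengths. On simulated counts for 16863 genes in this comparison, 87.6% of genes changed by 2-fold and 99.1% of those changed by 4-fold were recovered at an adjusted p under 0.05, and 7 unchanged genes were called. Every simulated gene had the same dispersion, and only 89 genes were changed by 2-fold and 111 by 4-fold. In the data the dispersion varies by gene and far more genes were called, so these rates may not hold there. Floors and intervals of counts cover counting error only.

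The members and lists were chosen with earlier results of these data known. All 40 members are accounted for. Every library's value is given for members called at 2-fold, for the lowest and highest fold change of each role and for members under the filter, and other members were added for their role. From each list of other genes, those with the 2 smallest p in each direction were named, except for some genes that are not reported here. The alternatives were DESeq2 1.42.0, scaling to the total count, limma 3.58.1 on log2(TPM + 1), no filter beyond 1 count, at least 10 counts in each of the libraries, the replicate number as a block, and leaving out each library. Removal of each library's trend on transcript GC content (99.8% of genes had a value) and canonical transcript lengths for the shares were added after seeing the data. Promoter windows were taken from RefSeq (GRCh38.p14).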

Additional observations from a re-analysis of the deposited data

How the results depend on the processing

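With a shCon library left out, some members with small fold changes no longer passed an adjusted p of 0.05. Scaling to the total count and limma on log2(TPM + 1) each left 1 member lower by 2-fold (ACSL1). Over all 16863 genes 829 and 524 were lower by 2-fold in these fits, and 1027 in the main fit. With no filter on low counts 3 members were higher and 3 lower by 2-fold, beside 2423 and 1214 of 30333 genes. The mitochondrial median log2 fold change was 0.016 with total count scaling and -0.009 with limma, beside 0.101 and 0.057 over all genes tested. It was -0.113 to -0.027 with each library left out. The ketone median was -0.263 to 0.035 with each library left out. Changes of share, in percentage points, became with CPM -6.87 for ACSL1, -1.41 for ACSL3, 12.58 for ACSL4, -2.97 for PPARD and -12.38 for PPARG, and with canonical lengths -7.97 for ACSL1, -5.54 for ACSL5, 4.13 for PPARA and -2.87 for PPARG.

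No reversed value belonged to a member that had passed the test. With total count scaling the log2 fold changes turned to 0.079 for ACADSB, 0.064 for HADHA, 0.023 for HADHB and 0.01 for ETFDH. With at least 10 counts they were 0.022 and 0.007 for ACADSB and HADHA, and with limma 0.046 and 0.038. With the GC trend removed they were 0.061 for ACADSB and -0.048 for BDH1. With each library left out they ranged from -0.058 to 0.03 for ACADSB, from -0.087 to 0.027 for HADHA, from -0.006 to 0.101 for DECR1, from -0.243 to 0.298 for BDH1 and from -0.016 to 0.092 for ACSL4. Over all genes tested the median was 0.016 in the main fit, 0.101 with total count scaling and 0.057 with limma. The cause of these sign changes was not tested.

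The replicate numbers do not pair the libraries by the labels, and deviations of the same number correlated across genes with r = 0.0393. With the replicate block 35 of the 36 members kept their side of the threshold and direction, 9 were higher and 15 lower, and ACADS passed the test (adjusted p = 0.0374, edgeR). Of all 16863 genes, 5000 were higher and 5023 lower with the block. DESeq2 left 35 of 36 as reported. The depth limits BDH1, OXCT1 and PPARGC1A, which had few counts, while ACADL and FABP1 had 0 counts in each library.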
